A study of Mus musculus with 4 samples.

Results

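The pre-B receptor and the proteins that carry its signal into the cell were followed through 9 genes: *Vpreb1*, *Vpreb3*, *Igll1*, *Cd79a*, *Cd79b*, *Blnk*, *Btk*, *Syk* and *Lyn*. They were chosen by name, and every probe that the array annotates with one of these symbols was taken. This gave 8 probes of 7 genes among the 39429 probes of the array. *Syk* stands on the array under its older symbol Sykb and was found by its accession, which added 1 probe. The descriptions on the array added 3 more, 1 of *Igll1*, 1 of *Syk* and 1 of a transcript described as similar to *Cd79a*, for 12 probes of all 9 genes. RNA came from *Ebf1*-/- Lin- cells of mouse fetal liver that had been infected with an EMPTY retrovirus or with the miR-195 retrovirus, and each virus was hybridized to 2 single-dye Agilent arrays. The medium of both groups held IL-7, SCF and Flt-ligand, which the study's methods give as 10 ng/mL each, over OP9 stroma cells for 7 days. All of these cells, the EMPTY cells included, are labelled *Ebf1*-/-, so that the comparison is between viruses on the same genotype and no *Ebf1*-competent cell stands beside it. The miR-195 insert was amplified from a human leukemia line and driven from a vector that also carries GFP, and no source states that infected cells were sorted before RNA was taken.

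The pre-B receptor is made by early B cells that have rearranged the heavy chain but not yet a light chain. VpreB and λ5, the products of *Vpreb1*, its close copy *Vpreb2* and *Igll1*, form the surrogate light chain that pairs with the μ heavy chain, and Igα and Igβ, encoded by *Cd79a* and *Cd79b*, carry the signal inwards. Src family kinases such as Lyn phosphorylate their tails, Syk docks there, and the adaptor BLNK then gathers Btk and phospholipase Cγ2. EBF1 is known as an activator of several of these genes, among them *Cd79a*, *Cd79b*, *Vpreb1*, *Igll1* and *Blnk*, which is why they are of interest in cells without it.

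The 5p mature form of miR-195 has the same seed, bases 2 to 8, as its relatives miR-15 and miR-16. The mouse sequence of RefSeq (GRCm38.p6, chr11:70235062-70235082, plus strand) is shown with the seed in capitals because it is the molecule by which the groups differ.
mmu-miR-195a-5p: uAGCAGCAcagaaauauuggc

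What was hybridized decides what could be seen of each gene, so the 60-base probes of the members whose readings are described at most length are given as the array lists them. Capitals mark in A_66_P120987 a stretch that reads AGGTAAGT on the opposite strand, which are the letters of a splice donor.
*Cd79b* A_51_P342652: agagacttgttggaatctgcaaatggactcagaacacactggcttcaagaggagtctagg
*Cd79a* A_66_P120987: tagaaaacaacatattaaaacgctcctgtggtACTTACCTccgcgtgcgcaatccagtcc
*Igll1* A_52_P493519: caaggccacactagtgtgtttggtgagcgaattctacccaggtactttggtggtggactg
*Vpreb1* A_51_P400217: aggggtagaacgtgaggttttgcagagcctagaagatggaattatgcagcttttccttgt
Those letters on the opposite strand occur in 29 of 39429 probes (0.07%). Where in *Cd79a* this probe lies was not analysed here, and its reading is given as that of the probe. The hexamer AATAAA, the common polyadenylation signal, was in 4 of the 12 member probes, which are those of *Vpreb3* and *Blnk*, the accession-matched probe of *Syk* and the transcript similar to *Cd79a*. It was in 12.59% of all probes.

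RefSeq promoter windows (GRCm38.p6, 250 bases before to 50 after the start) were at hand for 7 of the 9 members, with 2 starts for *Syk*. The windows of *Vpreb1* (chr16:16869206-16869505, minus strand), *Igll1* (chr16:16863936-16864235, minus strand) and *Cd79a* (chr7:24897247-24897546, plus strand) are shown, since these are genes that EBF1 is known to act on in cells that have it. Capitals mark every match, on either strand, to CCCNNGGG (the core of the EBF site), CAGNTG (an E-box), AGGAAGT (Ets), TGTGGT (Runx) or TGTTTAC (Foxo).
*Vpreb1* promoter: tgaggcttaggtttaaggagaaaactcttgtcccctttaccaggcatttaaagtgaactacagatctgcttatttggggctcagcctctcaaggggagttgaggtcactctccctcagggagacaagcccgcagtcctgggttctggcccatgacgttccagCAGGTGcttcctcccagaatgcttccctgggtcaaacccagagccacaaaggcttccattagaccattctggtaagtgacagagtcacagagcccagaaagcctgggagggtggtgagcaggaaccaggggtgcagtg
*Igll1* promoter: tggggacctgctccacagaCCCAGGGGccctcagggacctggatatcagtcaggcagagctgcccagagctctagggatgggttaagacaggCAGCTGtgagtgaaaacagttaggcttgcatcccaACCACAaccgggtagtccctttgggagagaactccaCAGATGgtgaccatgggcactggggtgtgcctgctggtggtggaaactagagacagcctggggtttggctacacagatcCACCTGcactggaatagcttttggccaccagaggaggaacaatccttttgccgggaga
*Cd79a* promoter: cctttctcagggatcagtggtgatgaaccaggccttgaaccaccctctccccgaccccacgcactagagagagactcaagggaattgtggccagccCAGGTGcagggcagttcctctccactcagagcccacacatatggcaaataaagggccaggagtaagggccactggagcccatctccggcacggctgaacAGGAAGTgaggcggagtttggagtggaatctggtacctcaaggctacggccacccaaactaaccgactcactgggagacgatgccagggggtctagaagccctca
CCCNNGGG was found in 1 of the 8 windows, that of *Igll1*, against 13.7% of all 32851 windows of this length. Only exact matches were counted, so a window without a match, such as that of *Cd79a*, may still hold a site that departs from these letters. CAGNTG was in 7 of 8 windows, with that of *Btk* as the exception, against 51.4% of all. AGGAAGT was in the windows of *Vpreb3*, *Cd79a* and *Blnk* (9.4% of all windows), TGTGGT in those of *Vpreb3* and *Igll1* (16.8% of all), and TGTTTAC in none of the 8 (3.6% of all). The windows of *Vpreb1* and *Vpreb2* share 153 of 156 bases where they overlap, at an offset of 144 bases. Their probes do not resemble each other, with at best 23 of 59 bases the same. Whether either probe also binds the transcript of the other copy was not analysed here.

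All 4 arrays lay on 1 slide, the EMPTY arrays first and the miR-195 arrays last, so that virus and place on the slide cannot be told apart. Between 23678 and 24701 probes were well above background on an array, the 75th percentile of signal ranged from 907.8 to 1136.6, and 0 probes were saturated. Across tested probes miR-195 replicate 2 stood furthest from the others, with r of 0.983 to 0.987 against 0.994 to 0.997 among the other arrays. The closest pair lay across the viruses, EMPTY replicate 2 and miR-195 replicate 1 (r = 0.9970). The 2 EMPTY arrays had r = 0.9962 and the 2 miR-195 arrays r = 0.9865, so the arrays did not group by virus. The result that turns on miR-195 replicate 2, that of *Cd79b*, is also given without that array. *Ebf1* had 1 probe, which read between 1.85 and 2.02 and was well above background on all 4 arrays. With no wild-type array, and with the probe's place relative to the disrupted part not analysed here, this does not check the genotype, which is taken from the labels. This value, like every level that follows, is a probe's log2 signal with its array's 75th percentile subtracted. A difference is the miR-195 mean minus the EMPTY mean in log2, with the standard error (SE) and the p of limma adjusted over 23732 tested probes. Called means an adjusted p under 0.05. In RNA from whole cultures, fewer cells of a type and less RNA per cell cannot be told apart.

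Of the 12 member probes, 10 were well above background on all 4 arrays. *Cd79b* was the only member whose 2 viruses lay further apart than 1 log2 unit in a tested probe, and it was higher with miR-195. The other 10 tested probes differed by 0.37 log2 or less in either direction. Over all 23732 tested probes limma called 0 (0%), with 1990 at an unadjusted p under 0.05 (8.39%). Of the 11 tested member probes it called 0, and 1, that of *Cd79b*, had an unadjusted p under 0.05. The viruses did not overlap for 5 of the 11, beside 37.6% of all tested probes. For 2 of these both miR-195 arrays lay above both EMPTY arrays, where 23.6% of all tested probes did so, and for 3 both lay below, where 14% did. One of these 3, a *Cd79a* probe, was well above background with EMPTY alone and so was tested only through the virus where it was higher. The members' median difference was 0.08, beside 0.01 over all tested probes. The sign of the difference turned under at least 1 of 14 alternatives for *Vpreb1*, *Vpreb3*, *Lyn*, both *Cd79a* probes and the second *Syk* probe. The smallest p of an exact permutation test, two-sided, is 0.333 for 2 arrays per virus, and a p that misses the threshold does not show that the viruses act alike.

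**Figure D1:**
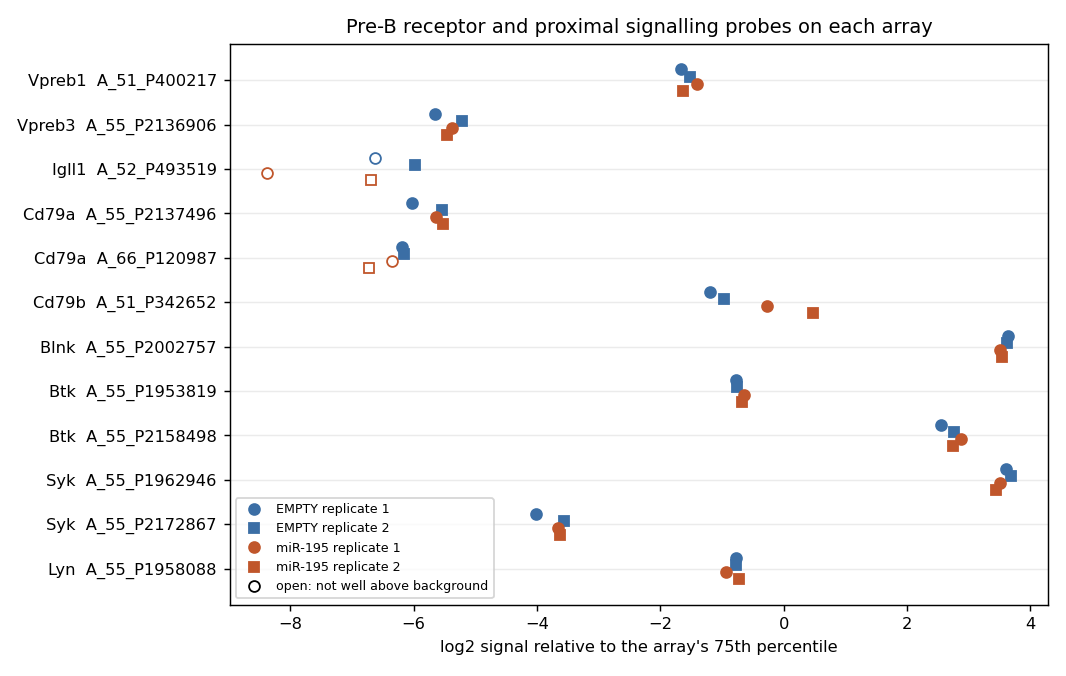
Level of each of the 12 member probes on the 4 arrays, as log2 signal less the array's 75th percentile. Blue marks EMPTY and orange miR-195, circles replicate 1 and squares replicate 2, and open symbols are readings not well above background. The miR-195 symbols lie apart to the right for *Cd79b*, and for most other probes the symbols of the viruses lie close together. Levels of different probes are not comparable.

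Among the surrogate light chain genes, *Vpreb1* overlapped between the viruses. Its probe (gene on chromosome 16, 16868401 to 16869255) measured -1.67 and -1.53 with EMPTY and -1.40 and -1.64 with miR-195. One miR-195 array lay above both EMPTY arrays and the other between them. The difference was 0.08 (SE 0.14, adjusted p = 0.945 from limma), with a 95% interval of the fold from 0.811 to 1.37. The probe was well above background on each array.

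*Vpreb3*, a relative of VpreB that associates with immunoglobulin chains inside the cell, lies on chromosome 10 from 75943024 to 75949657. It measured -5.65 and -5.21 with EMPTY and -5.38 and -5.46 with miR-195 and was well above background on all 4 arrays, not far above the dimmest such signals, which lay at -6.53 to -6.14. Both miR-195 values fell between the EMPTY values. The difference was 0.01 (SE 0.18, adjusted p = 0.994 from limma), and its interval, 0.722 to 1.41 as a fold, spans both directions.

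The λ5 gene *Igll1* (chromosome 16, 16860671 to 16863985) was read by a probe matched through its description. It measured -6.63 and -5.98 with EMPTY and -8.38 and -6.69 with miR-195. It was well above background on EMPTY replicate 2 alone, and on miR-195 replicate 1 the value is the surrogate that the scanner software sets for a dim spot. It was not tested, and no fold is given. *Vpreb2*, from the wider list, measured -4.48 and -4.26 with EMPTY and -4.51 and -4.61 with miR-195. Both miR-195 arrays lay below both EMPTY arrays, by 0.03 between the nearest pair, and the difference was -0.19 (SE 0.14, adjusted p = 0.828 from limma).

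Of the 2 signalling chains, Igα was read near the limit of detection. The probe with the symbol *Cd79a* (chromosome 7, 24897497 to 24901858) measured -6.19 and -6.15 with EMPTY and -6.35 and -6.72 with miR-195. With EMPTY it was well above background on both arrays and with miR-195 on neither. The measured means were -6.17 and -6.54 (adjusted p = 0.660 from limma), and no fold is given. The dimmest signal well above background on miR-195 replicate 2, at -6.14, lay above both EMPTY values. A *Cebpe* probe not well above background on that array read -5.86, so these signals set no sharp limit of detection and no bound is given. With normexp background correction, another way of removing the local background, the difference of this *Cd79a* probe changed from -0.37 to 0.23. The probe of the transcript similar to *Cd79a* was well above background on all arrays. It measured -6.02 and -5.53 with EMPTY and -5.64 and -5.53 with miR-195, with a difference of 0.19 (SE 0.20, adjusted p = 0.894 from limma) and overlapping groups. The 2 probes thus differed in sign, and neither was called.

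*Cd79b*, which encodes Igβ, was the member that differed most. On GRCm38.p6 it spans bases 106311341 to 106314562 of chromosome 11. Its probe measured -1.19 and -0.97 with EMPTY and -0.27 and 0.48 with miR-195, and was well above background on all 4 arrays. Both miR-195 arrays lay above both EMPTY arrays, and the nearest pair was 0.70 apart, more than the 0.22 between the EMPTY arrays but less than the 0.75 between the miR-195 arrays. In scanner signal the same spots read 498 and 530 with EMPTY and 753 and 1298 with miR-195. The difference of 1.19 (SE 0.28) is 2.28-fold, with a 95% interval of 1.38 to 3.77. At an unadjusted p of 0.00895 the probe stood at place 379 of 23732 by p and at place 239 by size, and its adjusted p from limma was 0.522. Without miR-195 replicate 2, the array that stood apart, the difference was 0.81. Without miR-195 replicate 1 it was 1.56, a value that sets the array that stood apart alone against the EMPTY arrays. The direction was the same under all 14 alternatives, at 0.81 to 1.56, but not all of them could turn it. The filters, the block, the other eBayes and the t-test keep the estimate. Leaving out an array cannot turn the sign of a probe without overlap. The alternatives with another normalization, background correction or the authors' table could, and they gave 1.08 to 1.20.

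**Figure D2:**
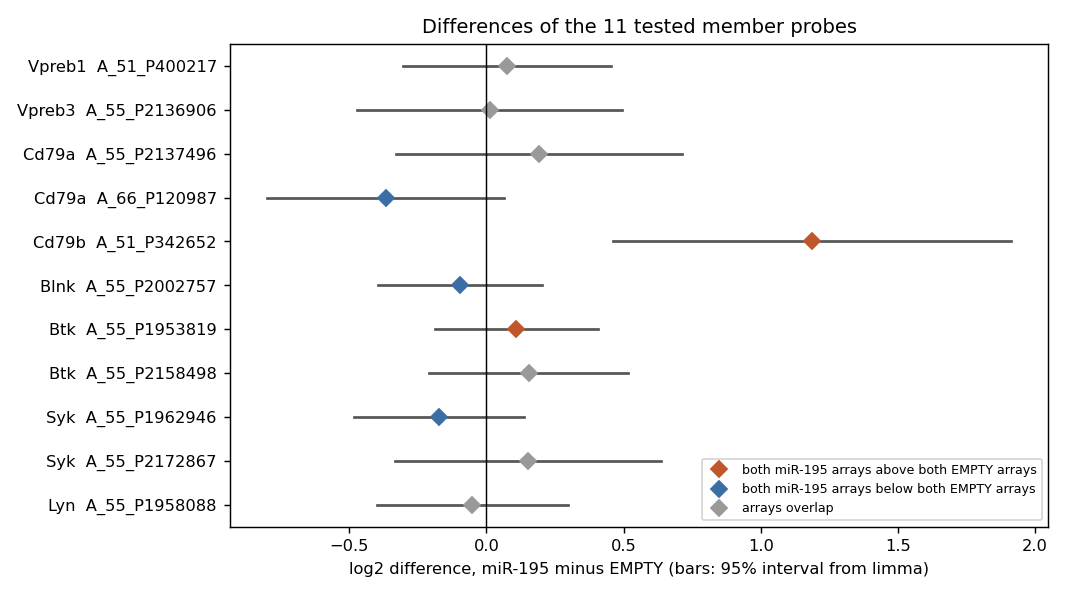
Log2 difference (miR-195 minus EMPTY) of the 11 tested member probes with the 95% interval from limma. Orange marks probes with both miR-195 arrays above both EMPTY arrays, blue those with both below, and grey those that overlap. The interval of *Cd79b* runs from 0.46 to 1.91, and those of the other 10 probes include 0.

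The genes whose pattern over the 4 arrays was most like that of *Cd79b* were found by the Euclidean distance between log2 values centred on each probe's mean. The 5 nearest were *Cd44*, a hyaluronan receptor of many blood cells, and 4 entries with provisional names: LOC100044771, Gm3081, A330106F07Rik and 5230400M03Rik. Their distances were 0.04, 0.06, 0.07, 0.08 and 0.08, and their differences 1.20, 1.14, 1.20, 1.17 and 1.18. The *Cd44* probe A_55_P2166488 measured -4.55 and -4.38 with EMPTY and -3.64 and -2.88 with miR-195. Like *Cd79b*, each of the 5 was highest on miR-195 replicate 2. This and their similar differences follow from the choice by distance and are not separate findings. Of the 23731 other tested probes, 77 lay within a distance of 0.25 and 442 within 0.5, which describes a shape shared by many probes over only 4 arrays.

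**Figure D3:**
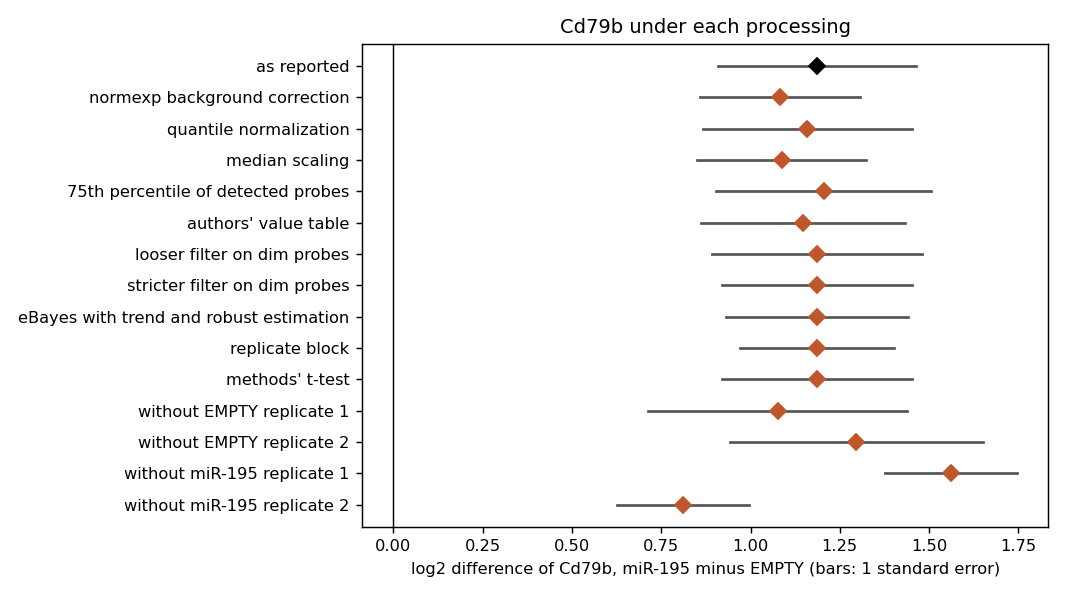
Log2 difference of *Cd79b* (miR-195 minus EMPTY) as reported (black) and under each of 14 alternatives (orange), with bars of 1 standard error. All points lie above 0, from 0.81 without miR-195 replicate 2 to 1.56 without miR-195 replicate 1. Alternatives that change only the filter, the block or the error keep the reported difference.

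Lyn, the Src family kinase that starts the cascade and also feeds its inhibitory arm, overlapped between the viruses. The *Lyn* probe (chromosome 4, 3678068 to 3791612) measured -0.77 and -0.78 with EMPTY and -0.93 and -0.72 with miR-195. The EMPTY values lay between the miR-195 values, and the difference was -0.05 (SE 0.13, adjusted p = 0.959 from limma).

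*Syk*, the kinase that binds the phosphorylated tails, lies on chromosome 13 from 52582610 to 52648792. The probe matched by accession measured 3.61 and 3.69 with EMPTY and 3.51 and 3.44 with miR-195. Both miR-195 arrays were lower, by 0.10 between the nearest pair, and the difference was -0.17 (SE 0.12, adjusted p = 0.818 from limma), with an interval of -0.48 to 0.14 in log2. The second probe, matched by description, measured -4.02 and -3.57 with EMPTY and -3.66 and -3.63 with miR-195, with a difference of 0.15 (SE 0.19, adjusted p = 0.909 from limma) and overlapping groups. The 2 probes share at best 22 of 53 bases and differed in sign.

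*Blnk*, the adaptor also known as SLP-65, lies on chromosome 19 from 40928927 to 40994221. It measured 3.63 and 3.62 with EMPTY and 3.51 and 3.54 with miR-195, a narrow spread within each virus. Both miR-195 arrays lay below both EMPTY arrays, and the difference of -0.10 (SE 0.11, adjusted p = 0.906 from limma) has a fold interval of 0.761 to 1.15. The sign was negative under all 14 alternatives, at -0.20 to -0.07. As for *Cd79b*, only those with another normalization, background correction or the authors' table could have turned it.

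*Btk*, the Tec family kinase that activates phospholipase Cγ2, lies on chromosome X from 134542334 to 134583628. The probe A_55_P1953819 measured -0.77 and -0.75 with EMPTY and -0.64 and -0.67 with miR-195, so that both miR-195 arrays were higher, with a difference of 0.11 (SE 0.11, adjusted p = 0.894 from limma). The other probe measured 2.56 and 2.77 with EMPTY and 2.88 and 2.75 with miR-195, with a difference of 0.15 (SE 0.14, adjusted p = 0.875 from limma) and overlapping groups. Both probes kept a positive sign under all 14 alternatives, the first at 0.01 to 0.13 and the second at 0.05 to 0.26. For the first, only those with another normalization, background correction or the authors' table could have turned it. For the second, leaving out an array could have done so too.

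Around the members, 57 further genes of the pathway were listed by role, and 55 of them had a tested probe. With each gene read by its probe of highest mean signal, limma called 0 of the 55, and 2 had an unadjusted p under 0.05. The mean was higher with miR-195 for 27 and lower for 28, and the median difference was -0.0016. Both miR-195 arrays lay above both EMPTY arrays for 5 of them and below for 10, beside 23.6% and 14% of all tested probes. A higher mean with miR-195 was found for 11 of 15 enzymes and exchange factors downstream, 3 of 3 receptor chains and coreceptors, 6 of 18 inhibitory receptors and phosphatases, 4 of 11 adaptors and 2 of 6 Src and Tec family kinases, beside 53.4% of all tested probes. Whether the roles differ was not tested.

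**Figure D4:**
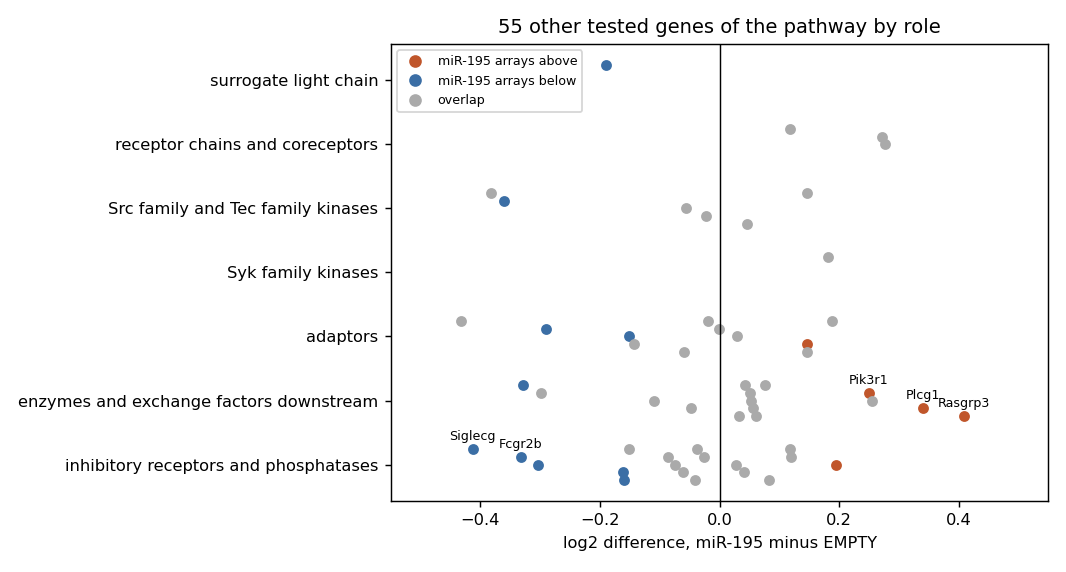
Log2 difference (miR-195 minus EMPTY) of the 55 other pathway genes by role, each dot being 1 gene read by its brightest probe, spread vertically for sight. Orange and blue mark genes whose viruses do not overlap, above and below, and grey those that overlap. All lie between -0.43 and 0.41, and genes described in the text with large non-overlapping differences are named.

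The largest positive difference without overlap in this list was that of *Rasgrp3*, an exchange factor that passes diacylglycerol signals to Ras. It measured -3.44 and -3.26 with EMPTY and -2.95 and -2.94 with miR-195, a difference of 0.41 (SE 0.13, adjusted p = 0.532 from limma). Next came *Plcg1*, phospholipase Cγ1, at 0.34 (SE 0.16, adjusted p = 0.672 from limma), and *Pik3r1*, a regulatory subunit of PI3K, at 0.25 (SE 0.12, adjusted p = 0.682 from limma). The second, dimmer *Plcg1* probe is outside this ranking, which reads each gene by its brightest probe. It differed by 0.61 (SE 0.13, adjusted p = 0.522 from limma). It was not well above background on EMPTY replicate 1 and so was tested only through the virus where it was higher. On the lower side stood *Siglecg*, an inhibitory receptor of B cells, which measured -2.83 and -2.89 with EMPTY and -3.18 and -3.37 with miR-195. Its difference was -0.41 (SE 0.13, adjusted p = 0.533 from limma), but that of its second probe was 0.01. *Fcgr2b*, the inhibitory Fc receptor, differed by -0.33 (SE 0.19, adjusted p = 0.762 from limma).

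Other genes at the core of the cascade overlapped between the viruses. *Plcg2*, the phospholipase that Btk activates, measured 5.61 and 5.72 with EMPTY and 5.76 and 5.69 with miR-195, a difference of 0.06. The B lineage Src kinase *Blk* differed by 0.05, *Fyn* by 0.15, *Tec* by -0.02, the Syk relative *Zap70* by 0.18 (second probe -0.01) and the PI3K adaptor *Pik3ap1* by 0.19. *Inpp5d* and *Ptpn6*, the phosphatases SHIP1 and SHP-1, differed by -0.03 and -0.09. The lowest adjusted p of these 8 genes was 0.896 from limma, that of *Zap70*. *Ighm* was not analysed here.

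Markers of other cells were read on the same arrays. Of 14 early B cell markers, 12 were well above background on all 4 arrays and 2, among them *Pou2af1*, on none. The summed level of these markers, as linear signal in units of the array's 75th percentile, was 148 and 156 with EMPTY and 149 and 132 with miR-195. Its brightest probes were those of *Ly6d* and *Cd93*, which differed by -0.25 and -0.07. Of these markers 3 were higher without overlap, *Rag1* by 0.52, *Rag2* by 0.32 and *Ms4a1* by 0.39. The 2 lower without overlap were *Dntt*, with a difference of -0.54, and *Ly6d*, with -0.25, and 0 were called. Beside these counts, 23.6% of all tested probes were higher without overlap and 14% lower. The sum of 10 stroma markers was 12.13 and 12.99 with EMPTY and 11.496 and 21.53 with miR-195. It was highest on miR-195 replicate 2, where *Cd79b* was highest too. It was lowest on miR-195 replicate 1, where *Cd79b* also lay above both EMPTY arrays. In this list 7 genes were well above background on all arrays and *Col5a2*, *Lum* and *Postn* on none. The sum of 12 myeloid markers was 61.3 and 76.4 with EMPTY and 75.1 and 38.3 with miR-195. It follows *Csf3r*, a probe left out of the test, which measured 5.59 and 5.93 with EMPTY and 5.89 and 4.51 with miR-195. *Mpo*, *Ctsg* and *Lyz2* differed by 0.72, 0.97 and 0.66, and *Prtn3*, *Csf1r* and *Itgam* by 0.32, 0.08 and 0.05. *Ly6g*, *Cebpe* and *Elane* differed by -0.28, -0.35 and -0.10, and 0 were called. *Ctsg* was dim with EMPTY, at -5.98 and -5.64. In this list 2 genes, *Mpo* and *Ctsg*, were higher and 1, *Ly6g*, lower without overlap. *S100a8* and *S100a9* were well above background on none. The 13 T and NK cell markers summed to 55.6 and 59.3 with EMPTY and to 53.6 and 52.9 with miR-195. Without overlap, 7 of them were lower and 0 higher, with 0 called. Among the 7, *Bcl11b* was well above background with EMPTY alone and so was tested only through the virus where it was higher. The 6 markers of plasmacytoid dendritic cells were well above background on all arrays, at sums of 303 and 336 with EMPTY and 333 and 308 with miR-195. Mast cell and basophil markers summed to 1.25 and 1.37 with EMPTY and 1.28 and 1.07 with miR-195, and erythroid and megakaryocyte markers to 0.350 and 0.301 against 0.279 and 0.178. The part of these cells in the difference of *Cd79b* was not tested.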

How the data were processed

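Expression was measured on 4 single-dye Agilent mouse arrays. The deposited intensity of a spot is that of the scanner software (Agilent Feature Extraction 11.5.1.1 in the submitters' processing notes), with local background and spatial trend removed and dim spots set to a small surrogate. The authors also deposited log2 values per probe, which they normalized at the 75th percentile. These correlated with the values used here at r = 0.998 on each array. From the intensity of 43020 spots that are not controls, log2 values were averaged over the spots of a probe, outlier spots left out, and the array's 75th percentile was subtracted. A probe was tested if both arrays of either virus read it well above background, and 92 with outlier spots were dropped. Differences were fitted with limma 3.58.1 (lmFit, eBayes; R 4.3.3, version 1.17.8 of data.table), two-sided, with Benjamini-Hochberg adjustment over all tested probes at 0.05, and the fit was checked on simulated data. Nothing states that replicates were separate cultures, so p-values measure the spread between these samples, which may be technical. The members, the pathway and marker lists, the naming rule (all member probes, the 3 largest non-overlapping differences on each side of the pathway list, core genes by role, and the 5 patterns nearest the member that differed most) and the tests were chosen with earlier results of these data known. Not every gene that the rule names is reported here. The alternatives were normexp (offset 50), quantile normalization, median scaling, the percentile over detected probes, the authors' table, a looser and a stricter filter, a block for the replicate number, eBayes with trend and robust estimation, the methods' t-test and each array left out. Promoters and the miRNA are from RefSeq.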

Additional observations from a re-analysis of the deposited data

How the results depend on the processing

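All 14 alternatives called 0 member probes, except the fit without miR-195 replicate 1, which called *Cd79b* (range over arrays left out 0 to 1). Of the 153 differences of single member probes under an alternative, 142 had the sign reported. Many of them could not differ in sign. Alternatives that change only the filter, the block or the error keep the estimate, and leaving out an array cannot turn a probe without overlap. *Vpreb1* turned to -0.024 with median scaling and ranged from -0.043 to 0.19 over arrays left out. *Vpreb3* turned to -0.056 with quantile normalization and to -0.088 with median scaling, and ranged from -0.21 to 0.23. The *Cd79a* probe turned to 0.23 with normexp, and the transcript similar to *Cd79a* to -0.010 in the authors' table, with a range of -0.055 to 0.44. The second *Syk* probe ranged from -0.073 to 0.38 and *Lyn* from -0.16 to 0.055 over arrays left out. Over all tested probes, the calls were 0 as reported, 3 with median scaling, and 0 to 681 over arrays left out, with 681 without miR-195 replicate 1, 96 without EMPTY replicate 2, 33 without miR-195 replicate 2 and 0 without EMPTY replicate 1. A lone array of a virus is there assumed to vary like the other virus. The median of the other pathway genes was -0.10 with median scaling, which moved the median of all tested probes from 0.01 to -0.08, and ranged from -0.033 to 0.025 over arrays left out. The cause was not tested.

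Deviations of arrays with the same replicate number correlated at -0.101, over 2 pairs, so the number was not taken to pair them. With the replicate block there were 5 calls over all probes and 0 among the members, where *Cd79b* had an adjusted p of 0.0938 from limma. With the numbers crossed, chosen after seeing the data, the calls were 0 and 0. The methods' t-test was run on the differences between arrays of the same replicate number, and so it does pair them. It gave 1140 probes at its threshold, 0 after Benjamini-Hochberg adjustment and 0 members at either. The reading of *Igll1* and of the *Cd79a* probe is limited by signal over background.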
